A study of Mus musculus with 35 samples.

Results

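The MAP kinase phosphatases described here are the products of 9 mouse genes, Dusp1, Dusp2, Dusp3, Dusp4, Dusp5, Dusp6, Dusp7, Dusp10 and Dusp16, taken by gene symbol from the 47069 Ensembl genes of the expression files. RNA-seq was done on bone marrow-derived macrophages (BMDMs), which are macrophages grown from flushed bone marrow in L929-conditioned medium, from C57BL/6 mice that were either wild type (WT) or AMPKa1-/-, a genotype named for the catalytic α1 subunit of the energy sensor AMP-activated protein kinase. BMDMs of each genotype received vehicle (DMSO), the glucocorticoid dexamethasone (Dex, 100 nM), the bacterial endotoxin lipopolysaccharide (LPS, 100 ng/ml), LPS + Dex, damage-associated molecular patterns (DAMPs, 1 µg/ml) or DAMPs + Dex for 24 h. The labels do not name the molecules in the DAMPs, and the age given in the study's methods is for its mice in general. This gave 12 groups and 35 libraries, 17 from WT and 18 from AMPKa1-/- BMDMs, with 3 libraries in every group except WT LPS, where replicates 2 and 3 were analysed.

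MAP kinases are switched on by phosphorylation of a threonine and a tyrosine in their activation loop. MAP kinase phosphatases remove both phosphates, and family members differ in which of ERK, JNK and p38 they prefer and in whether they sit in the nucleus or the cytoplasm. Several of their genes are themselves induced by MAP kinase signaling, which makes them feedback inhibitors, and Dusp1 is a classic glucocorticoid-induced gene in macrophages.

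Values are FPKM (fragments scaled to gene length and to the library's total), which allow levels to be compared between genes. Dusp1 (ENSMUSG00000024190) is annotated at chr17:26505590-26562128 on the minus strand, Dusp2 (ENSMUSG00000027368) at chr2:127336159-127338376 on the plus strand and Dusp3 (ENSMUSG00000003518) at chr11:101971143-101987013 on the minus strand. Dusp4 (ENSMUSG00000031530) lies at chr8:34807297-34819894 on the plus strand, Dusp5 (ENSMUSG00000034765) at chr19:53529109-53542431 on the plus strand and Dusp6 (ENSMUSG00000019960) at chr10:99263231-99267489 on the plus strand. Dusp7 (ENSMUSG00000053716) lies at chr9:106368632-106375724 on the plus strand, Dusp10 (ENSMUSG00000039384) at chr1:184013302-184075636 on the plus strand and Dusp16 (ENSMUSG00000030203) at chr6:134715468-134792625 on the minus strand. All coordinates are of build GRCm38 (GENCODE M21). Each of the 9 genes was above 0 in all 35 libraries, and 8 passed the filter for testing, a mean of at least 1 FPKM over all libraries. Dusp5, with a mean of 0.911 FPKM, did not pass.

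The 250 bases before the RefSeq transcription start (build GRCm38.p6) were read for the 8 genes that had an entry, all but Dusp4. Both strands were searched for the glucocorticoid receptor half-site AGAACA, the cyclic AMP response element TGACGTCA, the AP-1 element TGANTCA, the TATA box TATAAA, the CArG box of serum response factor and the NF-kB element. Dusp1 and Dusp5 held a match, and their sequences are shown, 5′ to 3′ on the gene's own strand and with the matches in capitals, because Dusp1 had the highest level of the family under Dex and Dusp5 was the gene with paired elements. The Dusp1 sequence is chr17:26508473-26508722 (minus strand) and that of Dusp5 is chr19:53528895-53529144 (plus strand).
Dusp1: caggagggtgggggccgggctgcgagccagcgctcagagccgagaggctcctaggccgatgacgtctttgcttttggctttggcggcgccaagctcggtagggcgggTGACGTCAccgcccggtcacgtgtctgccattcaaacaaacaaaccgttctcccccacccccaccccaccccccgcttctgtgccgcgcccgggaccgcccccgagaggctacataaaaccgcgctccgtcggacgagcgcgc
Dusp5: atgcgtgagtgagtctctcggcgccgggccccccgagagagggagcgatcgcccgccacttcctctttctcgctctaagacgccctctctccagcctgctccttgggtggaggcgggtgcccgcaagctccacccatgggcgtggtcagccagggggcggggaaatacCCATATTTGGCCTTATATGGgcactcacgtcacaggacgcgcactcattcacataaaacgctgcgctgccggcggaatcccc

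In Dusp1 the capitals mark a cyclic AMP response element from -143 to -136 relative to the start, letters found in 1.55% of all 32851 promoters of that length. In Dusp5 they mark 2 adjoining CArG boxes, CCATATTTGG from -82 to -73 and CCTTATATGG from -72 to -63, a motif found in 1.47% of promoters. The other motifs had shares of 16.1% (AGAACA), 6.75% (AP-1), 12.4% (TATA box) and 7.25% (NF-kB) among all promoters and no match in these 8 windows, which says only that those letters are not in these windows. The 8 windows ranged from 56.4% G+C in Dusp6 to 77.2% in Dusp7, all above the median of all promoters, 52.4%.

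The libraries held 15837203 to 31955298 fragments, read from the steps between low FPKM values, and 1 fragment on a 1-kb transcript was worth 0.0313 to 0.0631 FPKM. All 8 macrophage markers were at 1 FPKM or more in every library, with Lyz2 the most abundant. The neutrophil markers Ly6g, Elane and Mpo, the T cell marker Cd3e and the B cell marker Ms4a1 were at 0.5 FPKM or less in every library. Other markers of such cells were higher. S100a8 of the neutrophil list averaged 747 FPKM in WT LPS + Dex, and Csf3r 117 in WT LPS. The T cell list, led by Cd4, averaged 29.2 FPKM in WT DAMPs, and the B cell list 2.29 in WT LPS. The dendritic cell list, led by Itgax, averaged 459 FPKM in WT LPS. The low markers alone thus do not show that other cells were absent. The gene named in the genotype, Prkaa1, was read at 15.9, 11.8 and 15.3 FPKM in WT vehicle and at 14.8, 16.5 and 15.4 in AMPKa1-/- vehicle, so these values overlapped. Prkaa1 differed between genotypes under none of the 6 treatments (log2 fold changes from -0.29 to 0.33, limma adjusted p from 0.35 to 1.0). Which part of the gene the allele removes is not given in the sources used here, and a value over the whole gene does not check it, so AMPKa1-/- stands for the libraries labelled so. Prkaa2, the gene of the other catalytic subunit, was at 0.13 FPKM or less in every library. The Dex libraries of replicate 2 stood apart in the comparison of genotypes, where 3008 genes differed with all libraries, 308 without AMPKa1-/- Dex replicate 2 and 304 without WT Dex replicate 2.

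In both genotypes Dex raised Dusp1 and lowered Dusp4 and Dusp6, while LPS raised Dusp2, Dusp16, Dusp4 and Dusp1 and lowered Dusp3 and Dusp7. The Dusp4 calls with LPS in both genotypes and with Dex in WT did not pass without certain single libraries. In AMPKa1-/- BMDMs Dex also lowered Dusp3 and Dusp7, and neither call passed without Dex replicate 2. With LPS + Dex, Dusp1 had its highest group means (338 FPKM in WT and 314 in AMPKa1-/- BMDMs), and Dusp16 lay far below its level with LPS alone. The difference of Dusp1 between LPS + Dex and Dex alone was not tested. Ergic1, a gene that overlaps Dusp1 on the opposite strand, also stood high with LPS + Dex. DAMPs lowered Dusp6 in both genotypes, and in the main fit no other gene of the family passed the test under DAMPs alone. The Dusp6 call did not pass in WT with only the compared groups in the fit. In AMPKa1-/- BMDMs it did not pass without certain single libraries, and Dusp4 passed there with the replicate number as a block. The family's composition moved with these changes. In WT vehicle BMDMs Dusp3 made up 36.1%, Dusp7 30.9% and Dusp1 14.1% of the 9 genes' summed FPKM (means of 3 libraries). Dusp1 made up 67.7% in Dex, 82.0% in LPS + Dex and 75.0% in DAMPs + Dex. In WT LPS the leading genes were Dusp16 (34.1%), Dusp1 (21.7%) and Dusp2 (21.6%). The summed level averaged 129 FPKM in WT vehicle, 300.0 in Dex, 240.0 in LPS, 412 in LPS + Dex, 107 in DAMPs and 299 in DAMPs + Dex. The AMPKa1-/- sums were 161, 273, 224, 388, 127 and 321 FPKM, with Dusp1 at 19.4% in vehicle and 73.5%, 80.8% and 77.5% in the Dex, LPS + Dex and DAMPs + Dex groups.

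**Figure D1:**
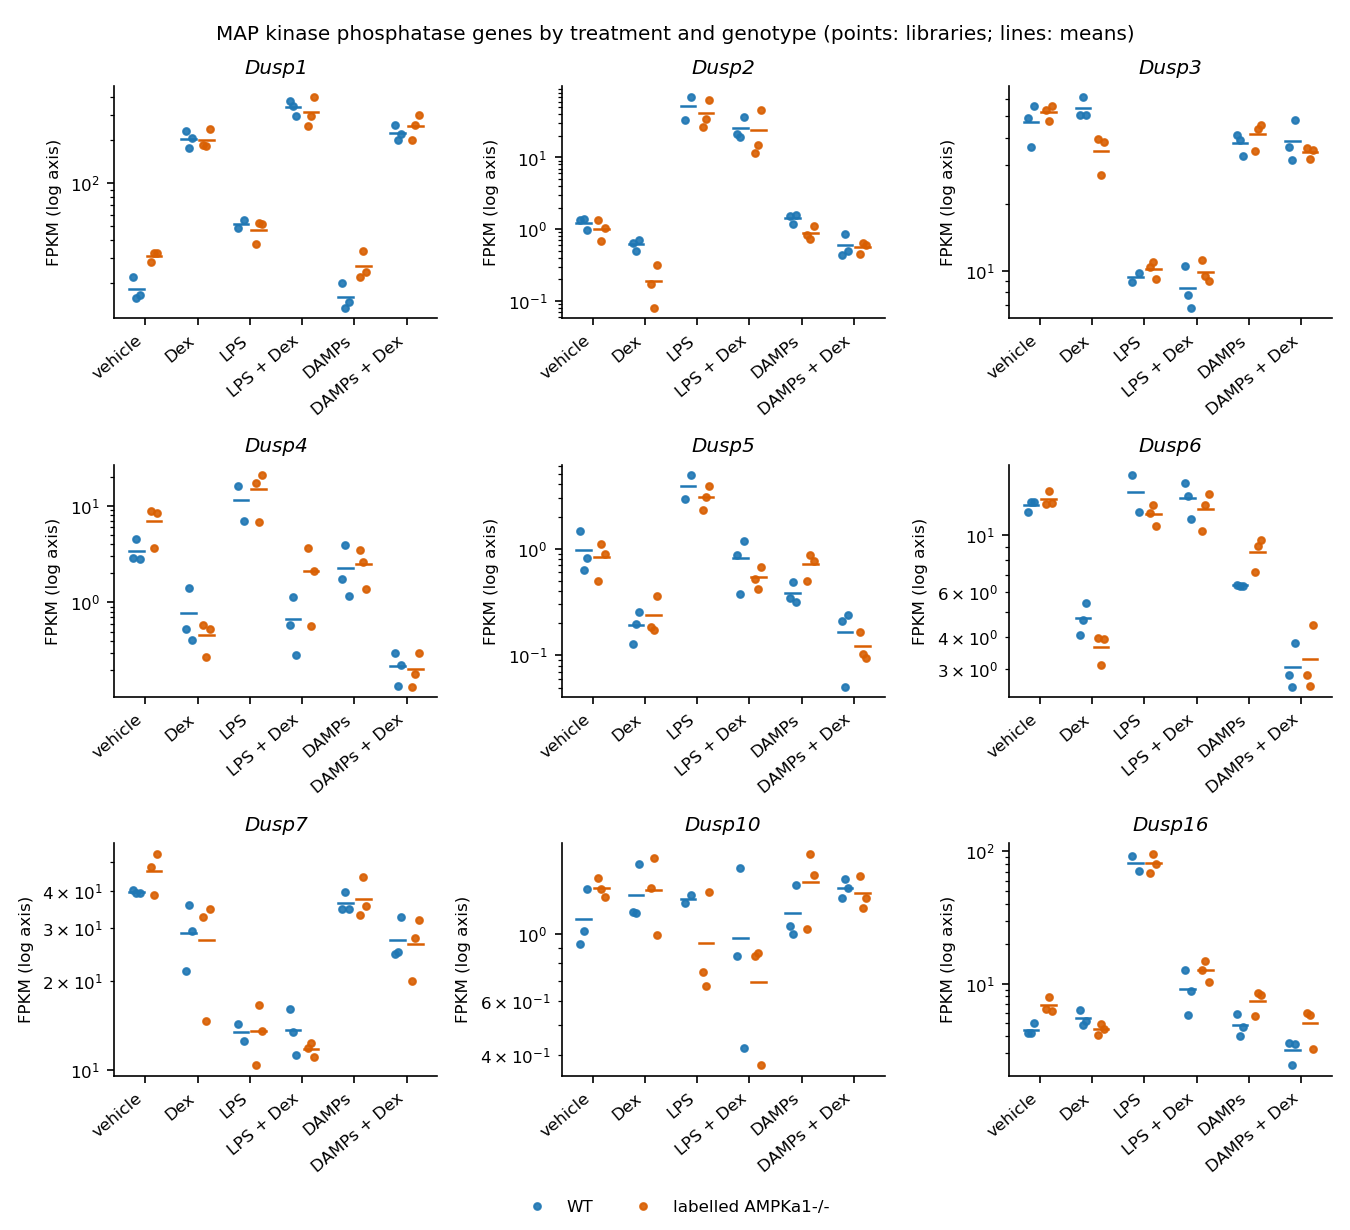
FPKM of the 9 genes (log axes) in each library (points) by treatment, with group means as lines, WT in blue and AMPKa1-/- in orange. Dusp1 lies between 175 and 400 FPKM in every library with Dex and between 13.5 and 55.5 in every library without it, and Dusp16 exceeds 68 FPKM in LPS alone.

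Fold changes below are log2 differences of log2(FPKM + 1) from limma with their standard errors, and p-values are adjusted by Benjamini-Hochberg over all 11354 genes tested. A plain fold is a ratio of mean FPKM and is larger than the log2 value for genes near 1 FPKM. Within WT, 1 of the 8 tested genes rose with Dex against vehicle, where 15.9% of all genes rose, and 2 fell, where 14.9% of all genes fell. With LPS against vehicle 4 rose (19.9% of all genes) and 2 fell (35.8%). Dusp2, among the 4, passed the filter mostly through its libraries with LPS (median without LPS 0.716 FPKM). With LPS + Dex against LPS 1 rose (16.6%) and 2 fell (17.5%), with DAMPs against vehicle 0 rose (1.22%) and 1 fell (0.793%), and with DAMPs + Dex against DAMPs 1 rose (11.7%) and 2 fell (12.6%). In AMPKa1-/- BMDMs, 1 rose (11.9% of all genes) and 4 fell (16.0%) with Dex, and 4 rose (20.2%) and 2 fell (44.1%) with LPS. With LPS + Dex against LPS 1 rose (19.3%) and 3 fell (18.4%), with DAMPs 0 rose (1.89%) and 1 fell (2.24%), and with DAMPs + Dex against DAMPs 1 rose (13.1%) and 2 fell (12.2%).

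The median log2 fold change of the 8 tested genes was -0.16 for Dex in WT, against 0.05 over all genes, 0.78 for LPS (against -0.19) and -0.22 for LPS + Dex against LPS (against -0.03). In AMPKa1-/- BMDMs it was -0.68 (against -0.05), 0.19 (against -0.3) and -0.18 (against 0.01). The median of all genes thus lay below 0 with LPS, and centring the libraries on 1 median moved the share of higher genes among those called from 35.7% to 46.3% in WT and from 31.4% to 49.0% in AMPKa1-/- BMDMs. In bulk RNA, fewer cells of a type and less RNA per cell cannot be told apart. Among markers of other cells, S100a8 led the neutrophil list, which summed to 778 FPKM on average in WT LPS + Dex, 138 in WT LPS and 75.7 in WT vehicle, while Ly6g, Elane and Mpo stayed at 0.5 or less. From WT LPS to LPS + Dex the mean of S100a8 went from 18.8 to 747 FPKM, that of Csf3r from 117 to 30.7 and that of S100a9 from 1.83 to 0.527. Between the same groups the macrophage list went from 17200 to 30200 FPKM (AMPKa1-/- 21600 to 34800). The dendritic cell list went from 459 to 261 (AMPKa1-/- 499 to 193), with Ccr7 at 73.7 and 0.86 in WT. The endothelial list went from 52.8 to 3.22 (AMPKa1-/- 36.6 to 1.55), with Kdr at 48.9 and 0.205 and Pecam1 at 3.76 and 3.0 in WT. The dendritic cell list, led by Itgax, summed to 459 FPKM in WT LPS and 224 in vehicle, with Ccr7 at 73.7 and 0.0377, Xcr1 at 1.27 and 0.217, and Flt3 and Zbtb46 at 0.444 and 0.686 or less in every library. The endothelial list, led by Kdr, summed to 52.8 and 2.3, with Pecam1 at 3.76 and 0.462 and Cdh5 at 0.167 or less in every library. Pecam1 averaged 3.65 FPKM in AMPKa1-/- LPS and 0.343 in AMPKa1-/- vehicle. With Dex alone the dendritic cell list summed to 58.2 FPKM in WT (AMPKa1-/- 22.9 against 151 in vehicle) and the neutrophil list to 32.3 (49.2 against 72.6). From vehicle to DAMPs the T cell list went from 16.7 to 29.2 FPKM in WT and from 10.1 to 19.2 in AMPKa1-/- BMDMs, without overlap in either. In WT the endothelial list went from 2.3 to 4.56, also without overlap, and the dendritic cell list from 224 to 150 with overlap. From WT DAMPs to DAMPs + Dex the dendritic cell list went from 150 to 60.4 FPKM, the neutrophil list from 86.7 to 35.3, the T cell list from 29.2 to 10.1 and the fibroblast list from 4.85 to 13.6. The T cell list, led by Cd4, summed in WT LPS and vehicle to 2.07 and 16.7 FPKM and the B cell list to 2.29 and 1.4, while the mast cell or basophil and erythroid markers were each under 1 FPKM in every library. Saa3 alone took 16.0% to 24.0% of the summed FPKM in WT LPS + Dex and 7.12% to 7.2% in WT LPS. The part of these in the values below was not tested.

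**Figure D2:**
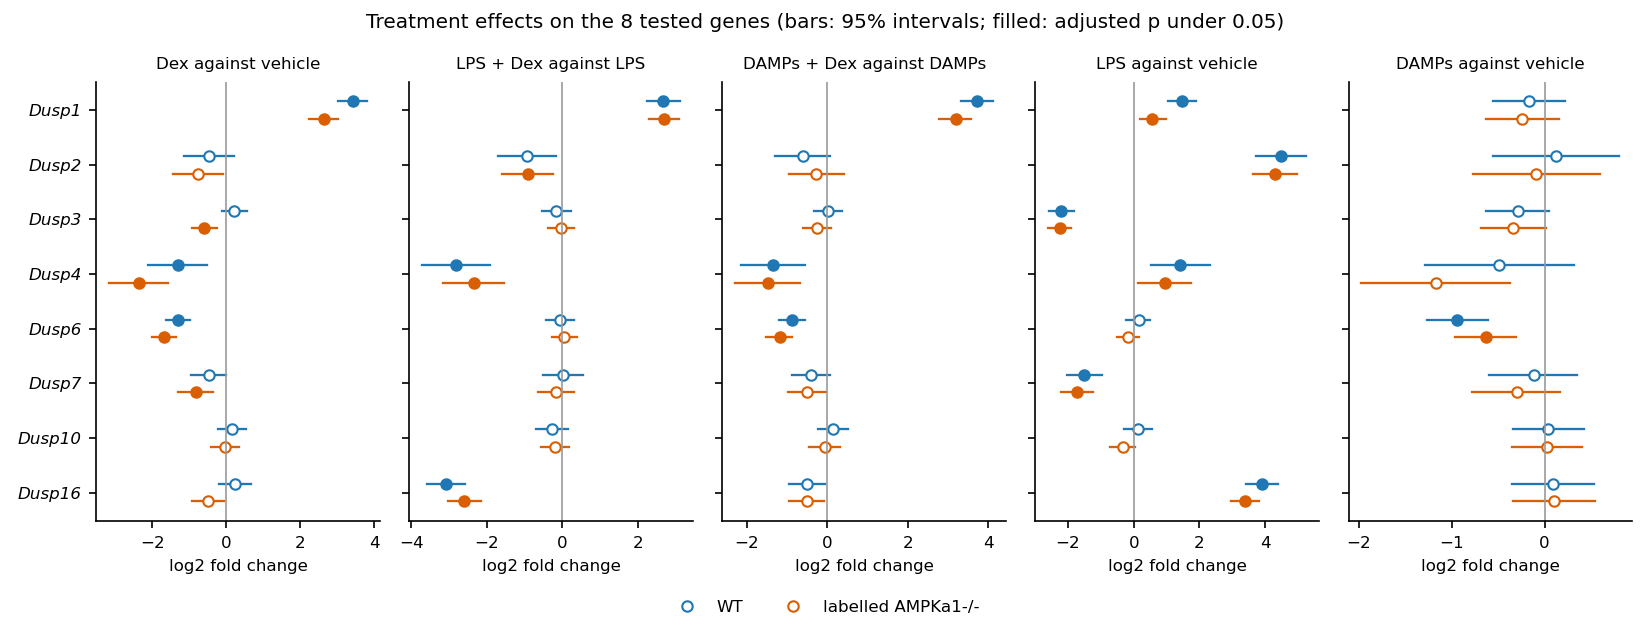
Log2 fold changes of log2(FPKM + 1) with 95% intervals for the 8 tested genes in 5 treatment comparisons, WT in blue and AMPKa1-/- in orange, with filled symbols for an adjusted p under 0.05. Dusp1 lies above 0 in all 3 comparisons that add Dex, and Dusp2 and Dusp16 have the highest values of the 8 genes with LPS against vehicle.

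Dusp1 encodes an inducible nuclear phosphatase that prefers p38 and JNK. In WT, its level was 22.3, 15.8 and 16.6 FPKM in the vehicle libraries and 229, 175 and 207 in the Dex libraries. In LPS it was 48.4 and 55.5, and in LPS + Dex 375, 346 and 294. All libraries with Dex lay above all libraries without it, and LPS alone lay between vehicle and Dex. Dex raised Dusp1 by 3.42 ± 0.19 (adjusted p = 1.2e-13), from 18.2 ± 3.57 (SD, n = 3) to 204 ± 27.5 FPKM, 11.2-fold. LPS raised it by 1.47 ± 0.21 (adjusted p = 1.3e-06, 2.85-fold). Dex added to LPS raised it by a further 2.68 ± 0.21 (adjusted p = 7.6e-11, 6.52-fold), to 338 ± 41.1 FPKM. With DAMPs its level was 20.2, 13.5 and 14.8 FPKM, overlapping vehicle, and with DAMPs + Dex 255, 200 and 218, a rise of 3.73 ± 0.19 over DAMPs (adjusted p = 1.4e-14, 13.9-fold).

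Dusp1 in AMPKa1-/- BMDMs was at 28.0, 32.8 and 32.7 FPKM in vehicle, 184, 181 and 237 in Dex, 37.5, 52.3 and 52.0 in LPS and 249, 292 and 400 in LPS + Dex. The order of the treatments was that of WT, without overlap between these 4 groups. Dex raised it by 2.64 ± 0.19 (adjusted p = 2.8e-11, 6.43-fold), LPS by 0.57 ± 0.19 (adjusted p = 0.011, 1.52-fold) and Dex added to LPS by 2.69 ± 0.19 (adjusted p = 4.8e-12, 6.64-fold). DAMPs + Dex exceeded DAMPs by 3.19 ± 0.19 (adjusted p = 4.8e-13, 9.4-fold). The annotated Dusp1 gene overlaps Ergic1 on the opposite strand, and the strand setting of the counting is not given in the sources used here, so fragments of the 2 genes cannot be told apart where they overlap. Ergic1 averaged 38.9 FPKM in WT vehicle, 51.3 in Dex, 38.8 in LPS and 169 in LPS + Dex, and 48.7, 45.5, 37.9 and 162 in AMPKa1-/- BMDMs. Of these treatments Ergic1 stood high with LPS + Dex, while Dusp1 stood high with Dex and with LPS + Dex. The genes that overlap the other 8 members on the opposite strand averaged 0.266 FPKM or less.

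Dusp2, Dusp4 and Dusp5 encode the other inducible nuclear phosphatases, of which that of Dusp5 acts on ERK. Dusp2 was nearly confined to LPS-treated BMDMs. In WT it was at 1.33, 1.4 and 0.97 FPKM in vehicle, 33.6 and 70.8 in LPS and 21.6, 19.5 and 37.1 in LPS + Dex. For AMPKa1-/- BMDMs these values were 1.33, 0.69 and 1.04, then 26.3, 34.6 and 62.6, then 11.4, 14.8 and 45.7. All 11 libraries with LPS lay at 11.4 to 70.8 FPKM and all 24 without it at 0.0795 to 1.59 (median 0.716). The mean of Dusp2 over all libraries, which the filter used, thus rests mostly on the libraries with LPS. LPS raised Dusp2 by 4.48 ± 0.37 in WT (adjusted p = 4.3e-11, 42.3-fold) and by 4.30 ± 0.33 in AMPKa1-/- BMDMs (adjusted p = 7.5e-12, 40.4-fold). The LPS and LPS + Dex libraries overlapped. The change with added Dex was -0.93 ± 0.37 in WT (adjusted p = 0.052) and -0.92 ± 0.33 in AMPKa1-/- BMDMs (adjusted p = 0.03), and the latter call was lost with a pseudocount of 0.1 (adjusted p = 0.063), with quantile normalization (adjusted p = 0.063), without the filter (adjusted p = 0.07) and in the fit of these groups alone (adjusted p = 0.2). The WT value passed without LPS replicate 2 (-1.46, adjusted p = 0.017) or LPS + Dex replicate 3 (adjusted p = 0.018) and was -0.41 without LPS replicate 3 (adjusted p = 0.55). The AMPKa1-/- call was also lost without LPS + Dex replicate 1 (-0.54, adjusted p = 0.25), LPS + Dex replicate 2 (-0.72, adjusted p = 0.14) or LPS replicate 3 (-0.58, adjusted p = 0.23). LPS + Dex lay below LPS in each of the 3 same-numbered AMPKa1-/- pairs, and the blocked fit gave an adjusted p of 0.014. In WT it also lay below LPS in both same-numbered pairs (19.5 against 33.6 and 37.1 against 70.8 FPKM). The WT difference passed in the blocked fit as well. Under Dex alone Dusp2 was at 0.634, 0.5 and 0.713 FPKM in WT and 0.17, 0.0795 and 0.317 in AMPKa1-/- BMDMs, below every vehicle library of its genotype. Neither difference passed the test (-0.46 ± 0.33, adjusted p = 0.29, and -0.76 ± 0.33, adjusted p = 0.091). DAMPs + Dex also lay below DAMPs without overlap in both genotypes, and neither of these differences passed. They were -0.61 ± 0.33 in WT (adjusted p = 0.2, 2.39-fold lower) and -0.27 ± 0.33 in AMPKa1-/- BMDMs (adjusted p = 0.6, 1.59-fold lower).

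Dusp4, whose product is close to that of Dusp1, moved against Dusp1 with Dex. In WT it was at 2.88, 4.54 and 2.78 FPKM in vehicle, 0.527, 1.42 and 0.406 in Dex, 15.9 and 6.89 in LPS and 0.583, 1.15 and 0.287 in LPS + Dex. Both LPS libraries lay above vehicle, and the Dex and LPS + Dex libraries lay below it and overlapped each other. Dex lowered Dusp4 by -1.32 ± 0.39 on the log2 scale (adjusted p = 0.011, 4.34-fold lower), LPS raised it by 1.42 ± 0.44 (adjusted p = 0.0071, 3.35-fold) and Dex added to LPS lowered it by -2.82 ± 0.44 (adjusted p = 7.7e-06, 16.9-fold lower). The first call was lost without WT vehicle replicate 2 (-1.14, adjusted p = 0.063) and the second without WT LPS replicate 2 (0.87, adjusted p = 0.19). With DAMPs it was at 1.74, 3.92 and 1.17 FPKM and with DAMPs + Dex at 0.3, 0.138 and 0.228, a fall of -1.34 ± 0.39 (adjusted p = 0.012, 10.2-fold lower) that did not pass without WT DAMPs replicate 2 (-1.0, adjusted p = 0.096).

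Dusp4 in AMPKa1-/- BMDMs was at 8.87, 3.63 and 8.49 FPKM in vehicle, 0.589, 0.275 and 0.533 in Dex, 17.1, 6.74 and 20.6 in LPS and 3.62, 0.576 and 2.13 in LPS + Dex. The vehicle and LPS libraries overlapped through replicate 2, which was lowest in all 4 groups, while LPS lay above vehicle in each of the 3 same-numbered pairs. Dex lowered Dusp4 by -2.37 ± 0.39 (adjusted p = 3.1e-05, 15.0-fold lower) and Dex added to LPS lowered it by -2.35 ± 0.39 (adjusted p = 1.7e-05, 7.02-fold lower). LPS gave 0.94 ± 0.39 (adjusted p = 0.038, 2.12-fold), a call lost without LPS replicate 1 (0.77, adjusted p = 0.13), LPS replicate 3 (0.65, adjusted p = 0.19) or vehicle replicate 2 (0.58, adjusted p = 0.23), with a pseudocount of 0.1 (1.03, adjusted p = 0.12) and in the fit of these groups alone (adjusted p = 0.089). With the replicate number as a block it had an adjusted p of 0.006. DAMPs + Dex stood below DAMPs by -1.48 ± 0.39 (adjusted p = 0.0051, 12-fold lower). Over all groups, Dusp4 lay at 0.135 to 3.62 FPKM in the 18 libraries with Dex and at 1.17 to 20.6 in the 17 without it. Its values rest on 6 to 1123 fragments a library.

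Dusp5 rested on 2 to 287 fragments a library and did not pass the filter over all libraries, so it was tested without the filter. In fits of the compared groups alone it passed the filter only where LPS was among them, and no p-value of those fits is given. In WT it was at 1.45, 0.626 and 0.81 FPKM in vehicle, 0.127, 0.196 and 0.257 in Dex, 2.89 and 4.87 in LPS and 0.875, 0.373 and 1.18 in LPS + Dex. LPS lay above the other groups and Dex below vehicle, and LPS + Dex overlapped vehicle. Without the filter, LPS gave 1.31 ± 0.20 (adjusted p = 7.3e-06, 4.03-fold higher), Dex -0.70 ± 0.18 (adjusted p = 0.0078, 4.98-fold lower) and LPS + Dex against LPS -1.43 ± 0.20 (adjusted p = 4.2e-06, 4.79-fold lower). The AMPKa1-/- levels of Dusp5 were 0.5, 1.1 and 0.883 FPKM in vehicle, 0.184, 0.172 and 0.362 in Dex, 2.28, 3.06 and 3.9 in LPS and 0.522, 0.418 and 0.679 in LPS + Dex. The 3 changes there had the same directions, 1.15 (adjusted p = 7.1e-06), -0.55 (adjusted p = 0.039) and -1.39 (adjusted p = 9.5e-07). The Dex effect with LPS differed from that without it by -0.84 ± 0.25 in AMPKa1-/- BMDMs (adjusted p = 0.023 without the filter) and by -0.73 ± 0.26 in WT (adjusted p = 0.062).

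With DAMPs, Dusp5 was at 0.347, 0.49 and 0.314 FPKM in WT and with DAMPs + Dex at 0.21, 0.051 and 0.24. The AMPKa1-/- values were 0.493, 0.877 and 0.774 with DAMPs and 0.167, 0.102 and 0.0952 with DAMPs + Dex. The groups did not overlap in either genotype, and without the filter the difference passed in AMPKa1-/- BMDMs (-0.61 ± 0.18, adjusted p = 0.024) and not in WT (-0.25 ± 0.18, adjusted p = 0.51). DAMPs against vehicle passed in neither (-0.48, adjusted p = 0.33, in WT and -0.09, adjusted p = 1.0, in AMPKa1-/- BMDMs).

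Dusp6 and Dusp7 encode cytoplasmic phosphatases that act on ERK, and Dusp6 is a readout of ERK activity in many cells. Dusp6 in WT was at 12.3, 13.5 and 13.5 FPKM in vehicle, 4.08, 4.67 and 5.41 in Dex, 17.2 and 12.3 in LPS and 16.1, 14.2 and 11.6 in LPS + Dex. Dex alone lay below vehicle, while vehicle, LPS and LPS + Dex overlapped. Dex lowered Dusp6 by -1.31 ± 0.16 (adjusted p = 3.7e-07, 2.77-fold lower). The difference between LPS + Dex and LPS was -0.07, with a 95% interval from -0.43 to 0.30 (adjusted p = 0.82). With DAMPs it was at 6.4, 6.32 and 6.35 FPKM, below every vehicle library (-0.94 ± 0.16, adjusted p = 0.0023, 2.06-fold lower), and with DAMPs + Dex at 2.82, 2.55 and 3.79, lower again (-0.87 ± 0.16, adjusted p = 0.00012, 2.08-fold). With only the DAMPs and vehicle groups in the fit the DAMPs difference had an adjusted p of 0.08.

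Dusp6 in AMPKa1-/- BMDMs was at 13.3, 14.9 and 13.4 FPKM in vehicle, 3.97, 3.09 and 3.92 in Dex, 12.2, 13.2 and 10.9 in LPS and 10.4, 13.1 and 14.5 in LPS + Dex. Dex again stood apart below the other 3 groups (-1.68 ± 0.16, adjusted p = 4.7e-09, 3.78-fold lower than vehicle). DAMPs gave 7.19, 9.05 and 9.59 FPKM (-0.63 ± 0.16, adjusted p = 0.017, 1.61-fold lower), and DAMPs + Dex 2.82, 2.57 and 4.44 (-1.18 ± 0.16 against DAMPs, adjusted p = 1.6e-06, 2.63-fold lower). The DAMPs call was lost without AMPKa1-/- DAMPs replicate 1 (adjusted p = 0.13), vehicle replicate 2 (0.094) or vehicle replicate 3 (0.051).

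Dusp7 was lower with LPS. In WT it was at 40.2, 39.5 and 39.4 FPKM in vehicle, 21.6, 35.8 and 29.3 in Dex, 14.3 and 12.5 in LPS and 16.1, 13.5 and 11.3 in LPS + Dex. LPS lay below vehicle and overlapped LPS + Dex. LPS lowered Dusp7 by -1.50 ± 0.26 (adjusted p = 1.5e-05, 2.96-fold lower), and Dex gave -0.47 ± 0.23 (adjusted p = 0.12). In AMPKa1-/- BMDMs it was at 48.0, 38.9 and 53.2 FPKM in vehicle, 32.8, 14.6 and 34.9 in Dex, 10.4, 16.6 and 13.6 in LPS and 11.9, 12.4 and 11.1 in LPS + Dex. LPS lowered it by -1.72 ± 0.23 (adjusted p = 2.4e-07, 3.45-fold lower) and Dex by -0.83 ± 0.23 (adjusted p = 0.0075, 1.7-fold lower). The Dex call rested on Dex replicate 2, the lowest library, without which the value was -0.44 (adjusted p = 0.12), and was not made in the fit of these groups alone (adjusted p = 0.062). With DAMPs + Dex, Dusp7 lay below DAMPs without overlap in both genotypes. Neither difference passed (-0.41 ± 0.23, adjusted p = 0.22, in WT and -0.51 ± 0.23, adjusted p = 0.11, in AMPKa1-/- BMDMs).

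Dusp10 and Dusp16 encode phosphatases that prefer JNK and p38. Dusp16 was high with LPS alone. In WT it was at 4.21, 4.22 and 5.01 FPKM in vehicle, 6.34, 4.86 and 5.23 in Dex, 91.5 and 71.3 in LPS and 12.6, 5.75 and 8.72 in LPS + Dex. The 2 LPS libraries lay far above all others, and LPS + Dex lay above vehicle and overlapped Dex. LPS raised Dusp16 by 3.90 ± 0.24 (adjusted p = 9.2e-14, 18.2-fold) and Dex added to LPS lowered it by -3.09 ± 0.24 (adjusted p = 4.2e-11, 9.02-fold lower). The AMPKa1-/- libraries had 6.44, 7.87 and 6.18 FPKM of Dusp16 in vehicle, 4.06, 4.97 and 4.55 in Dex, 68.3, 95.6 and 79.9 in LPS and 12.7, 14.9 and 10.3 in LPS + Dex. The rise with LPS was 3.39 ± 0.21 (adjusted p = 1.3e-13, 11.9-fold) and the fall with added Dex -2.60 ± 0.21 (adjusted p = 9.7e-11, 6.44-fold lower). Outside LPS alone no library exceeded 14.9 FPKM. Dex alone gave -0.50 ± 0.21 in AMPKa1-/- BMDMs (adjusted p = 0.085), and -0.50 ± 0.18 (adjusted p = 0.037) in the fit with the replicate number as a block.

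Dusp16 with DAMPs + Dex was at 3.53, 2.41 and 3.49 FPKM in WT against 5.92, 4.03 and 4.68 with DAMPs, a difference that did not pass (-0.50, adjusted p = 0.091). The AMPKa1-/- values were 6.01, 5.83 and 3.18 FPKM against 5.64, 8.47 and 8.2, which overlapped (-0.51, adjusted p = 0.083). Dusp10 was at 0.37 to 1.83 FPKM over the 35 libraries, with a median of 1.31, and was called in no comparison with all libraries. Its group means ran from 0.695 in AMPKa1-/- LPS + Dex to 1.48 in AMPKa1-/- DAMPs. LPS against vehicle gave -0.34 in AMPKa1-/- BMDMs (adjusted p = 0.11), and -0.50 (adjusted p = 0.032) without LPS replicate 3. With LPS it ranged from 0.37 to 1.64 FPKM and without it from 0.928 to 1.83, so these ranges overlapped.

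Dusp3 encodes a small phosphatase without the MAP kinase-binding domain of the others. In WT it was at 49.0, 36.4 and 55.7 FPKM in vehicle, 50.5, 61.4 and 50.8 in Dex, 8.94 and 9.72 in LPS and 10.5, 7.8 and 6.79 in LPS + Dex. All 11 libraries with LPS lay at 6.79 to 11.2 FPKM and all 24 without it at 27.0 to 61.4. LPS lowered Dusp3 by -2.20 ± 0.19 in WT (adjusted p = 7.1e-11, 5.04-fold lower) and by -2.26 ± 0.17 in AMPKa1-/- BMDMs (adjusted p = 3e-12, 5.15-fold lower). In AMPKa1-/- BMDMs it was at 53.6, 47.8 and 55.8 FPKM in vehicle and 39.4, 27.0 and 38.3 in Dex, which did not overlap (-0.59 ± 0.17, adjusted p = 0.0085, 1.5-fold lower). Without Dex replicate 2 this value was -0.42 (adjusted p = 0.088).

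The Dex effect with LPS was tested against the Dex effect without it. In WT this difference was called higher for 1 of the 8 genes, where 14.9% of all genes were higher, and lower for 2 (17.1%), and in AMPKa1-/- BMDMs higher for 1 (15.5%) and lower for 1 (12.8%). Dusp6 was the gene with a higher value in both genotypes (1.24 ± 0.24, adjusted p = 0.00023, in WT and 1.73 ± 0.23, adjusted p = 1e-06, in AMPKa1-/- BMDMs), since Dex lowered it without LPS only. Dusp16 was lower in both (-3.32 ± 0.32, adjusted p = 8.8e-09, and -2.10 ± 0.30, adjusted p = 4.7e-06), since Dex lowered it with LPS. Dusp1 differed by -0.74 ± 0.29 in WT (adjusted p = 0.049), a call lost without the filter (adjusted p = 0.09) with centring (-0.58, adjusted p = 0.11) and without any 1 of 8 of the 11 WT libraries, among them each LPS library (-0.84, adjusted p = 0.076, without replicate 2 and -0.64, adjusted p = 0.15, without replicate 3). It differed by 0.05 in AMPKa1-/- BMDMs with a 95% interval from -0.50 to 0.61 (adjusted p = 0.91). Dusp4 gave -1.50 ± 0.59 in WT (adjusted p = 0.051) and 0.02 ± 0.55 in AMPKa1-/- BMDMs (adjusted p = 0.98). The WT value of Dusp4 was -0.95 without LPS replicate 2 (adjusted p = 0.32) and -2.05 without LPS replicate 3 (adjusted p = 0.022), and it also passed without LPS + Dex replicate 2 (adjusted p = 0.041), vehicle replicate 2 (0.046) or Dex replicate 3 (0.044).

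**Figure D3:**
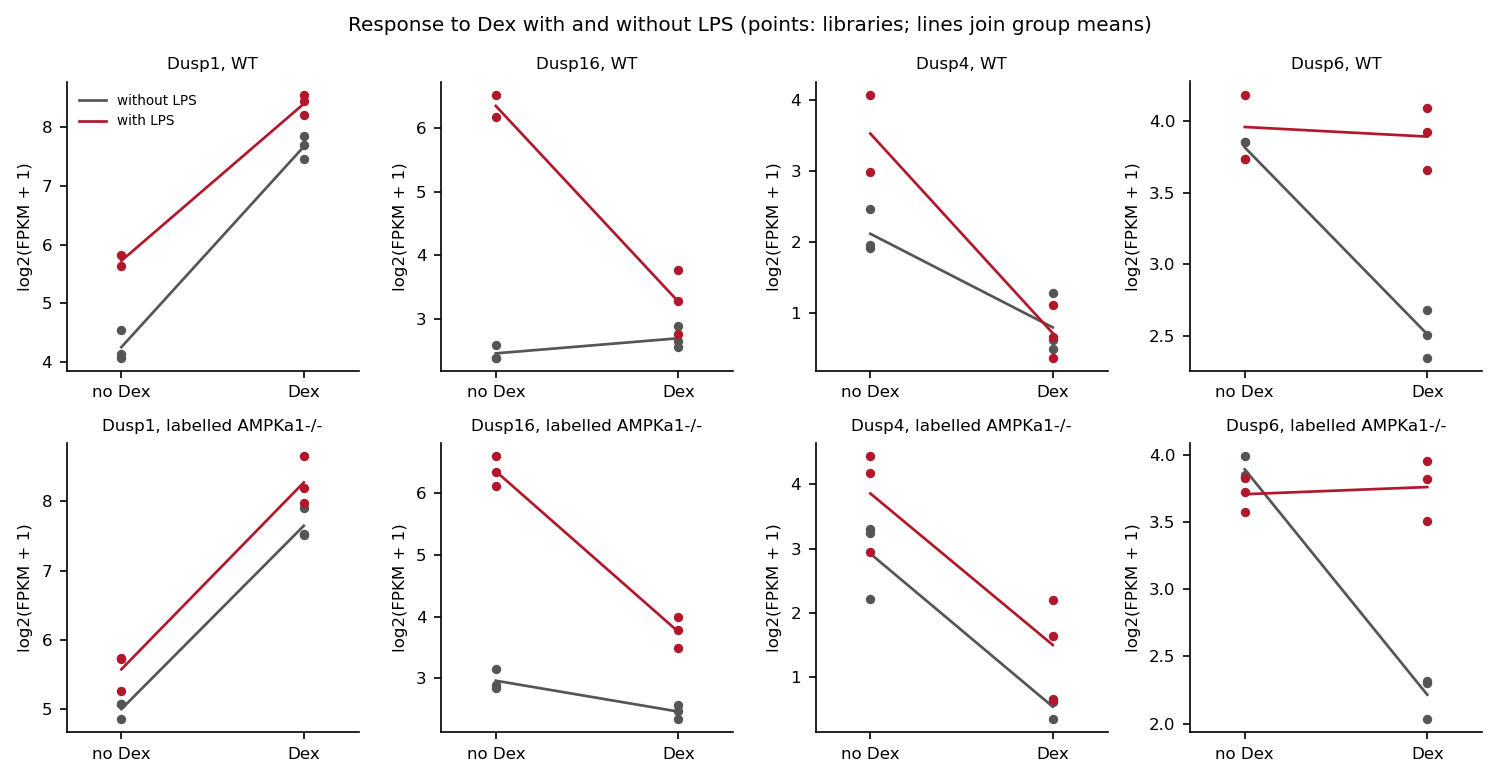
log2(FPKM + 1) of Dusp1, Dusp16, Dusp4 and Dusp6 without and with Dex in both genotypes, grey without LPS and red with LPS, where points are libraries and lines join group means. The lines of Dusp6 fall without LPS (WT means 13.1 to 4.72 FPKM) and stay level with it (14.8 to 14.0), and those of Dusp16 fall steeply with LPS.

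Between genotypes at a fixed treatment, no gene of the family differed in vehicle (0.432% of all genes called), LPS (0.766%), LPS + Dex (0.669%), DAMPs (0.731%) or DAMPs + Dex (1.06%). In Dex 1 of 8 differed, where 26.5% of all genes were called. That gene was Dusp3, lower in AMPKa1-/- BMDMs at 39.4, 27.0 and 38.3 FPKM against 50.5, 61.4 and 50.8 in WT, without overlap (-0.63 ± 0.17, 95% interval -0.98 to -0.29, adjusted p = 0.012, 1.55-fold lower). It was not called without AMPKa1-/- Dex replicate 2 (-0.47, adjusted p = 0.12) or WT Dex replicate 2 (-0.54, adjusted p = 0.09). The split of all called genes in Dex moved with the scaling, from 41.4% higher in AMPKa1-/- BMDMs to 59.1% with centring, in LPS from 54.0% to 69.9% and in LPS + Dex from 50% to 60.8%.

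Dusp1 was higher in all 3 AMPKa1-/- vehicle libraries (28.0, 32.8 and 32.7 FPKM) than in all 3 of WT (22.3, 15.8 and 16.6), a log2 difference of 0.75 with a 95% interval from 0.36 to 1.15 that did not pass the adjustment (adjusted p = 0.082, 1.71-fold). In DAMPs the values were 22.3, 33.4 and 24.0 against 20.2, 13.5 and 14.8 FPKM, again without overlap (0.68, interval 0.29 to 1.08, adjusted p = 0.11, 1.64-fold). Dusp16 was also without overlap in vehicle (0.51, adjusted p = 0.63), as were Dusp6 (0.38, interval 0.05 to 0.70, adjusted p = 0.52, 1.35-fold) and Dusp5 (1.86-fold, 0.31 without the filter, adjusted p = 0.89) in DAMPs. Other members were lower in AMPKa1-/- BMDMs without overlap, namely Dusp2 in Dex (-0.45, adjusted p = 0.31, 3.26-fold lower) and DAMPs (-0.36, adjusted p = 0.97, 1.6-fold lower) and Dusp6 in Dex (-0.30, adjusted p = 0.16, 1.29-fold lower). In all, 2 of the 9 genes did not overlap between genotypes in vehicle (13.9% of all genes tested), 3 in Dex (49.5%), 4 in DAMPs (11.6%) and 0 in LPS (30.2%), LPS + Dex (9.63%) and DAMPs + Dex (13.3%). Summed over the 4 genes of the list, fibroblast markers came to 0.63 to 24.1 FPKM in WT (median 8.12) and to 0.388 to 4.29 in AMPKa1-/- BMDMs (median 1.95), with Pdgfra at 0.386 or less in every library and Col1a2 the most abundant gene. In vehicle the sums were 17.9, 1.49 and 9.51 FPKM in WT against 1.16, 2.74 and 1.38, and in DAMPs 5.14, 1.28 and 8.12 against 1.94, 2.99 and 1.58, so the genotypes overlapped in both. In Dex they were 11.6, 15.0 and 24.1 against 3.71, 4.29 and 2.97, in LPS 6.39 and 6.98 against 0.388, 1.95 and 1.27, and in DAMPs + Dex 8.97, 13.8 and 18.1 against 3.99, 3.54 and 1.96, each without overlap.

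Further marker lists did not overlap between genotypes. In Dex, the macrophage list summed to 22900, 19400 and 22900 FPKM in WT against 35500, 36700 and 29700. The dendritic cell list summed to 63.0, 33.4 and 78.2 FPKM in WT against 18.4, 25.6 and 24.7, and the neutrophil list to 33.8, 30.0 and 33.1 against 62.1, 42.1 and 43.3. In DAMPs, the macrophage list summed to 26500, 26400 and 28400 FPKM in WT against 39500, 28600 and 31300, the dendritic cell list to 162, 99.5 and 187 against 64.2, 86.3 and 77.8, and the T cell list to 35.2, 22.8 and 29.5 against 16.4, 20.5 and 20.8, with Cd3e and Cd3g at 0.128 or less in every library. In vehicle the T cell list summed to 18.3, 16.1 and 15.8 FPKM against 11.7, 11.7 and 7.03. The T cell list in LPS, the low B cell list in LPS and DAMPs and the list of mast cells or basophils in vehicle were also higher in WT without overlap. The part of these markers in the genotype values was not tested.

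**Figure D4:**
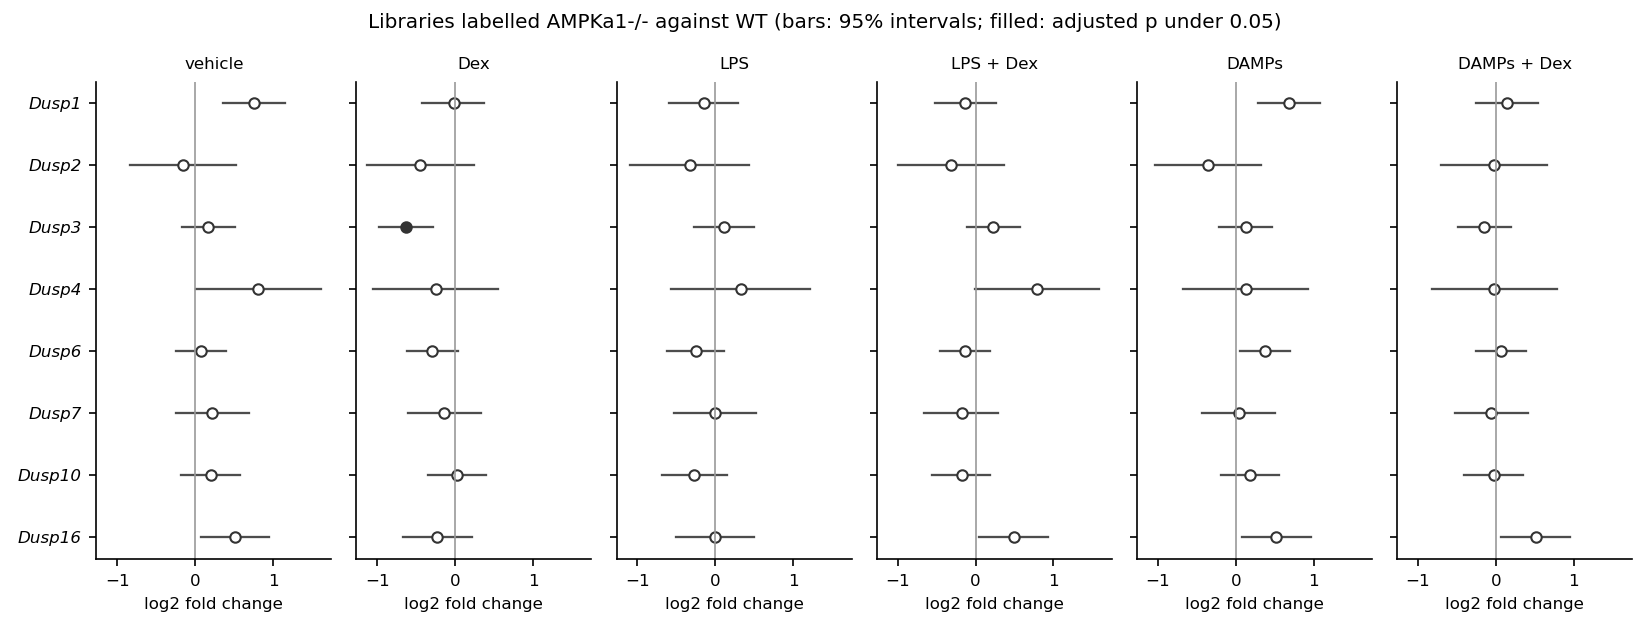
Log2 fold changes of log2(FPKM + 1) between AMPKa1-/- and WT BMDMs with 95% intervals for the 8 tested genes under each of the 6 treatments, with filled symbols for an adjusted p under 0.05. The filled symbol is Dusp3 in Dex at -0.63, and 95% intervals above 0 belong to Dusp1 in vehicle and DAMPs, to Dusp16 in vehicle, LPS + Dex, DAMPs and DAMPs + Dex, to Dusp4 in vehicle and to Dusp6 in DAMPs.

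Whether a treatment effect differed between genotypes was tested for each of the 5 treatment comparisons, and limma called 0 of all 11354 genes in each (0.0%). Unadjusted p-values under 0.05 were found for 2441 genes with Dex against vehicle, 514 with LPS against vehicle, 311 with LPS + Dex against LPS, 66 with DAMPs against vehicle and 234 with DAMPs + Dex against DAMPs. Among the 8 genes they were 3, 1, 0, 0 and 0. For Dex these were Dusp3 (-0.81 ± 0.24, adjusted p = 0.19), Dusp1 (-0.78 ± 0.27, adjusted p = 0.19) and Dusp16 (-0.74 ± 0.30, adjusted p = 0.2), and for LPS it was Dusp1 (-0.90 ± 0.29, adjusted p = 0.73).

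The remaining typical family members were low. Dusp8 was at 1.3 FPKM or less (median 0.481) and Dusp9 at 1.7 or less (median 0.278), and neither passed the filter. Of the kinases on which the phosphatases act, 6 of 10 MAP kinase genes were tested. With LPS + Dex against LPS in WT, 2 of the 6 rose (16.6% of all genes) and 1 fell (17.5%), shares of all genes that hold for each list in this comparison. Mapk14, which encodes p38α, rose by 0.92 (adjusted p = 6e-06) from a mean of 57.7 to 111 FPKM, after a fall of -1.02 with LPS (118 FPKM in vehicle). Mapk3, which encodes ERK1, rose by 0.57 (adjusted p = 8.1e-05) from 169 to 252 FPKM, after -1.70 with LPS (552 FPKM in vehicle). Mapk9, which encodes JNK2, fell by 0.46 on the log2 scale (adjusted p = 0.0033). Mapk7 lay at 11.6 to 27.8 FPKM over all libraries and Mapk8 at 3.43 to 10.6. Mapk10, Mapk11, Mapk12 and Mapk13 were at no more than 0.0183, 1.95, 0.8 and 1.04 FPKM.

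Upstream of them, 2 of 7 MAP kinase kinases rose and 2 fell with LPS + Dex against LPS in WT, where 16.6% of all genes rose and 17.5% fell. Map2k6, an activator of p38, rose by 1.19, Map2k1, an activator of ERK, gave -0.80 and Map2k3, another activator of p38, gave -0.69. Of 16 MAP kinase kinase kinases and adaptors 2 rose and 1 fell. Map3k6 rose by 3.38 (adjusted p = 9.7e-12), from 0.573 to 16.1 FPKM, and with Dex alone by 4.2, from 1.85 to 51.9 FPKM. Map3k20 gave -0.53 and Map3k11 0.42. Of 10 kinases activated by MAP kinases 2 rose and 1 fell, with Mapkapk3 at -0.89, Rps6ka1 at 0.87 and Mknk2 at 0.63. Among the other inhibitors, Spred1 of the ERK feedback list fell (-0.94; 1 of 3 tested) and Dusp28 of the 6 tested atypical dual-specificity phosphatases fell (-0.88, adjusted p = 0.001), while limma called 0 of 6 further phosphatases that act on MAP kinases.

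With Dex against vehicle in WT, 2 MAP kinase genes rose and 1 fell, among them Mapk8, the gene of JNK1 (0.61, adjusted p = 0.016, 5.61 to 9.11 FPKM). In the same comparison 0 MAP kinase kinases rose and 1 fell, 5 of the 16 kinase kinase kinases and adaptors rose and 1 fell, and 2 of the kinases activated by MAP kinases rose and 3 fell. Of the ERK feedback inhibitors 2 of 3 fell, as Dusp6 did, 1 of 6 atypical phosphatases rose, and of the 6 further phosphatases 3 rose and 1 fell. With LPS against vehicle in WT, 1 MAP kinase gene rose and 2 fell, 1 kinase kinase rose and 2 fell, and 3 of the 16 kinase kinase kinases and adaptors rose and 6 fell. Of the kinases activated by MAP kinases 2 of 10 rose and 5 fell (median -0.65, against -0.19 over all genes). Of the ERK feedback inhibitors 1 rose and 1 fell, of the atypical phosphatases 2 rose and 1 fell, and of the further phosphatases 1 rose and 2 fell. Over all genes 15.9% rose and 14.9% fell with Dex, and 19.9% rose and 35.8% fell with LPS.

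Lists of inflammatory, glucocorticoid-induced and immediate early genes were drawn up with results of these data known, so their counts describe the lists and test nothing. Among the inflammatory genes, Ptgs2 and Il1a averaged 0.445 and 0.48 FPKM in WT vehicle and 1190 and 1770 in WT LPS. Their mean over all libraries, which the filter used, thus rests mostly on the libraries with LPS. All 12 inflammatory genes rose with LPS in WT (median log2 fold change 8.46), 4 fell with Dex alone, and all 12 fell with LPS + Dex against LPS (median log2 fold change -6.28, against -0.03 over all genes), among them Cxcl10 (-9.07, from 1060 to 1.1 FPKM), Ptgs2 (-8.31) and Il1a (-8.14). Over all genes 16.6% rose and 17.5% fell in this comparison. Of 12 glucocorticoid-induced genes 8 rose and 2 fell (median 1.72), after 8 that rose and 1 that fell with Dex alone, with Tsc22d3 at 5.91 (2.99 to 238 FPKM), Fkbp5 at 5.55 (4.5 to 261 FPKM) and Mt2 at 3.96. Of 10 immediate early genes, which MAP kinases induce within minutes in many cells, 2 rose and 5 fell (median -0.65), with Ier3 at -2.95 (130 to 16.5 FPKM), Atf3 at -2.80 and Egr2 at -2.57. In AMPKa1-/- BMDMs 0 of the inflammatory genes rose and 12 fell (median -6.12), 9 of the glucocorticoid-induced genes rose and 1 fell (median 1.79), and 3 of the immediate early genes rose and 6 fell, where 19.3% of all genes rose and 18.4% fell.

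**Figure D5:**
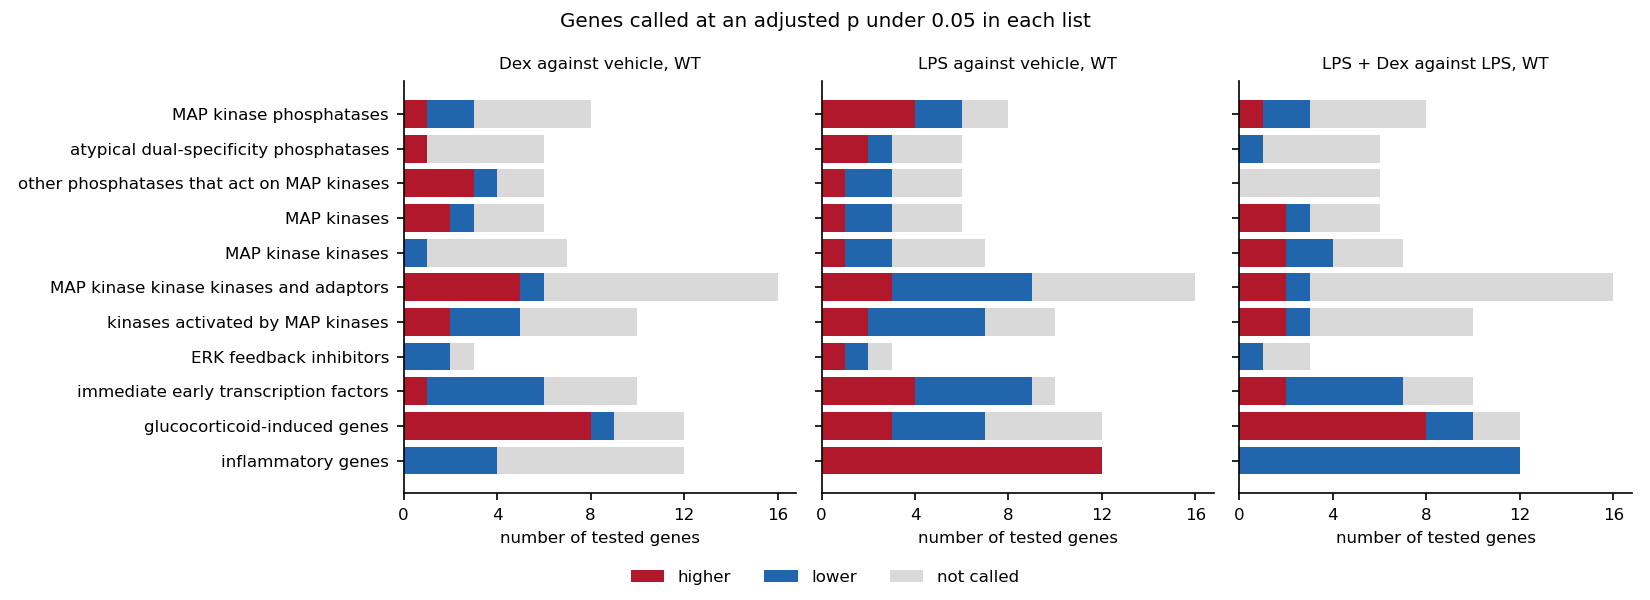
Number of tested genes called higher, called lower or not called (stacked bars, adjusted p under 0.05) in each list of pathway genes for Dex against vehicle, LPS against vehicle and LPS + Dex against LPS in WT. All 12 inflammatory genes, a list drawn up with results of these data known, are higher with LPS and lower with LPS + Dex against LPS. The lists of kinases hold called genes in both directions.

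As a description over the 12 group means of log2(FPKM + 1), which share treatments and libraries, the genes most like Dusp1 were Rin3 (r = 0.978), Ogfrl1 (0.976) and Pex11a (0.975). Those most like Dusp2 were Vti1a (0.996), Adhfe1 (0.995) and Acsl5 (0.995), and those most like Dusp16 were Rab11fip1 (0.995), Rhbdf2 (0.991) and Slc20a1 (0.99). Dusp3 was closest to Wdr81 (0.994), Sfxn3 (0.989) and Slco2b1 (0.989), and Dusp7 to Anks6 (0.993), Kitl (0.992) and Anxa1 (0.991). Dusp6 was closest to Spred2 (0.968), an inhibitor of the ERK pathway from the feedback list, then Trmt61a (0.964) and Fmnl3 (0.961). Dusp4 was closest to Smad7 (0.969), Pmpca (0.963) and Ywhag (0.962), and Dusp10 to Lrrcc1 (0.926), Eid2 (0.92) and Pde3b (0.913). Within the family, Dusp3 and Dusp7, both lower with LPS, were the most alike (r = 0.94 over 12 group means), followed by Dusp2 and Dusp16 (0.86), while Dusp2 and Dusp3 ran opposite (-0.95).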

How the data were processed

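RNA-seq was done on BMDMs of 12 groups (35 libraries; WT LPS replicate 1 was not analysed here). The authors deposited FPKM values for 47069 Ensembl genes; the submitters' processing notes name Bowtie2 2.2.3, TopHat2 2.0.12, HTSeq 0.6.1 and DESeq2 with builds GRCm38 and mm10, without their roles or the strand setting. FPKM is relative to the library total, so a few abundant transcripts lower all other values. Symbols came from GENCODE M21 (46488 genes matched). Totals of 15837203 to 31955298 fragments were read from the FPKM steps; 55.4% to 63.9% of genes under 10 fragments were whole within 0.001 fragment. Replicates correlated at r = 0.967 to 0.993 and no 2 libraries shared a nonzero value.

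The 11354 genes averaging 1 FPKM or more were tested as log2(FPKM + 1) with limma 3.58.1 (R 4.3.3; trend, 2-sided) on the 12 group means, with Benjamini-Hochberg adjustment and a threshold of 0.05, after a check on simulated data. FPKM are not counts, so no count model was used. The groups share 1 estimate of the spread. Comparisons with the same control group share its libraries. The study's methods take cultures from individual mice as replicates, but the labels tie no library to a mouse, so p-values measure the spread between these libraries. Replicate numbers were checked by correlating deviations from the group means. They paired the libraries (all 3 r over 0.1) in AMPKa1-/- BMDMs for Dex against vehicle (0.304, 0.217, 0.4), LPS against vehicle (0.24, 0.124, 0.316) and LPS + Dex against LPS (0.373, 0.375, 0.356), and for AMPKa1-/- against WT in LPS + Dex (0.12, 0.119, 0.515). WT LPS has 2 libraries, so 2 pairs were read there. Both r were over 0.1 for LPS + Dex against LPS in WT (0.113, 0.429) and for AMPKa1-/- against WT in LPS (0.134, 0.112). For LPS against vehicle in WT both were below 0 (-0.183, -0.162).

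Named were all 9 genes, Prkaa1, Prkaa2, the genes of the lists of MAP kinases (1 is not reported here) and remaining typical phosphatases, up to 3 called genes of each other list with the highest absolute change for LPS + Dex against LPS in WT, and the 3 genes most like each tested member. Ergic1, the overlapping gene, and Saa3 were named after their values were seen. The members and lists were chosen with earlier results of these data known. Marker lists covered macrophages, neutrophils, dendritic cells, T cells, B cells, mast cells or basophils, erythroid cells, fibroblasts and endothelial cells. Fits were repeated without the filter, with a filter at 5 FPKM, with 0.1 as pseudocount, after centring or quantile normalization, on the compared groups alone, with a replicate block and with each library left out. Promoters came from RefSeq. Python 3.11.15, numpy 2.4.6, pandas 2.3.3, scipy 1.17.1 and matplotlib 3.10.9 were used.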

Additional observations from a re-analysis of the deposited data

How the results depend on the processing

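Of 2621 values under the alternatives, 2556 kept their side of the threshold, 30 passed newly and 35 no longer passed. Of those that passed with or without the alternative, 0 changed sign, and of those that passed in neither 148 did. The number of the 8 genes called for DAMPs against vehicle in WT was 1 and became 0 with only the groups compared. For DAMPs + Dex against DAMPs in AMPKa1-/- BMDMs it was 3 and became 5 with centring and 5 with quantile normalization. For AMPKa1-/- against WT in Dex it was 1 and became 2 with a pseudocount of 0.1, with 0 to 1 over the libraries left out. Leaving out libraries gave 3 to 5 for Dex against vehicle and 0 to 1 for DAMPs against vehicle in AMPKa1-/- BMDMs. With the replicate block the latter became 2, by Dusp4 (-1.17, adjusted p = 0.013). For LPS + Dex against LPS in WT, where 2 pairs exist and both r exceed 0.1, the block added Dusp2 (adjusted p = 0.032). Where the numbers only name the libraries, the block also added Dusp4 for the Dex effect with minus without LPS in WT (adjusted p = 0.011). It likewise added Dusp16 for DAMPs + Dex against DAMPs in WT (adjusted p = 0.04) and AMPKa1-/- BMDMs (adjusted p = 0.036). Where the numbers pair all 3 replicates, the block changed no call other than that of Dusp16 given above.

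Over all genes, fitting only the groups compared changed the number called from 3871 to 2065 for LPS + Dex against LPS and from 228 to 1 for DAMPs against vehicle, both in WT, and between genotypes from 49 to 19 in vehicle, 87 to 3 in LPS, 76 to 7 in LPS + Dex, 83 to 11 in DAMPs and 120 to 35 in DAMPs + Dex. Without the filter it became 92 in vehicle, 450 in LPS and 146 in LPS + Dex, and 21, 118, 75, 2 and 9 for the 5 tests of a difference between genotypes in a treatment effect, each 0 with the filter. The cause was not tested. Where 1 WT LPS library was left out, the other was taken to vary like the other groups. Values of Dusp5 and of Dusp4 with Dex rest on few fragments, which limits their precision.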
